A study of Mus musculus with 2 samples.

Results

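The cyclins, kinases and inhibitors that govern the G1 phase of the cell cycle were examined as a set of 10 genes in heart tissue of adult mice. The set held the D-type cyclins Ccnd1, Ccnd2 and Ccnd3, cyclin G1 (Ccng1), the kinases Cdk4 and Cdk6, the inhibitors Cdkn1a, Cdkn1b and Cdkn2c, and the transcription factor Meis1. These genes were chosen by name out of 55536 gene identifiers, and each name matched 1 identifier. All 10 had a mean count of at least 50 and a level of at least 1 TPM in both libraries. TPM is a relative abundance corrected for transcript length, rescaled here over endogenous genes.

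The data were total RNA-seq of 2 heart libraries from female mice aged 8 to 10 months of the strain 5xFAD/CAST, with 300 ng of RNA per library and ERCC spike-ins. 5xFAD is an Alzheimer's disease model in which mutant human genes for amyloid precursor protein and presenilin are expressed under the neuronal Thy1 promoter, and CAST is an inbred strain founded from wild mice. The libraries formed 1 group, so no other genotype, age or sex was compared, and no test of a contrast was possible. They had separate biosample identifiers but 1 donor identifier, so the SD given below (n = 2 throughout) measures the spread between these libraries, which may be technical. Replicate 1 held 45599940 expected counts and replicate 2 held 40801299. Heart muscle markers were abundant in both, with the ventricular light chain Myl2 at 7882 ± 629 TPM. Markers of lymphocytes summed to 1.09 and 0.835 TPM, and those of lung to 0.0503 TPM in each library, with Sftpc at 0 counts.

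In a dividing cell, growth signals induce D cyclins, which bind and activate Cdk4 or Cdk6. The active kinases phosphorylate the retinoblastoma protein and its relatives, which releases E2F factors and lets the cell enter S phase. INK4 inhibitors such as p18 (Cdkn2c) bind the kinases directly, whereas the Cip/Kip inhibitors p21 (Cdkn1a) and p27 (Cdkn1b) bind cyclin-kinase complexes. Most mammalian cardiomyocytes leave the cell cycle soon after birth, and Meis1, a TALE homeobox factor, is known to promote that arrest. Ccng1, like Cdkn1a, is a target gene of p53. Cardiomyocytes are only a part of the cells of the heart, and in a bulk sample fewer cells of a type and less RNA per cell cannot be told apart.

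The D cyclins are closely related, and the start of their coding sequences is shown first because it holds the feature that links the family to the retinoblastoma protein. The first 60 bases of each coding sequence (GENCODE M21 transcripts, mm10) are given from the start codon, with capitals on the in-frame codons of the LxCxE motif, by which these cyclins bind that protein.
Ccnd1: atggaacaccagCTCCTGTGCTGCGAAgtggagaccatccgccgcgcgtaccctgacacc
Ccnd2: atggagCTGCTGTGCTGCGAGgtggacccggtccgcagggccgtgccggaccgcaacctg
Ccnd3: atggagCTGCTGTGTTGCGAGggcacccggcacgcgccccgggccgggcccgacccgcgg
Each coding sequence held this motif 1 time, at bases 13 to 27 in Ccnd1 and 7 to 21 in Ccnd2 and Ccnd3. Whole coding sequences were compared by the share of alignment columns, gaps included, that held identical bases. That share was 66.8% for Ccnd1 and Ccnd2, 66.1% for Ccnd2 and Ccnd3, and 63.1% for Ccnd1 and Ccnd3. The longest run of identical bases was 20 between Ccnd1 and Ccnd2. It was also 20 between the kinases Cdk4 and Cdk6, whose coding sequences were identical at 64.0% of alignment columns. These runs are shown in capitals with 25 bases on either side, because reads cannot tell relatives apart where the sequence is shared.
Ccnd1: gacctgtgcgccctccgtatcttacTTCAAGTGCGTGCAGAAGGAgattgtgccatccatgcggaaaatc
Ccnd2: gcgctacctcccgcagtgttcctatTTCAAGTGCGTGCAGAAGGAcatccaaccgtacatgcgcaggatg
Cdk4: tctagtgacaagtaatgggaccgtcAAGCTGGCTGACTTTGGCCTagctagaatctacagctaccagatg
Cdk6: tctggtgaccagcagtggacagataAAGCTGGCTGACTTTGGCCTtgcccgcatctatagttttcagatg
No 31-base word was found in the transcripts of more than 1 of the 10 genes, so that the levels of relatives rest on separate sequence at that length.

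Among the D cyclins Ccnd2 was the most abundant, followed by Ccnd3 and Ccnd1. Ccnd2 (chr6:127125162-127152193, minus strand, mm10) had 43.8 TPM in replicate 1 and 52.7 TPM in replicate 2, from 5447 and 5599 expected counts. Ccnd3 (chr17:47505051-47599691, plus strand) had 24.5 and 24.1 TPM, from 1599 and 1472 counts. Ccnd1 (chr7:144929931-144939925, minus strand) had 9.73 and 13.0 TPM, from 1128 and 1403 counts. The 3 genes did not overlap in level between libraries. Together they made up 83.9 ± 8.33 TPM, of which Ccnd2 took 57.4% ± 1.75, Ccnd3 29.1% ± 3.20 and Ccnd1 13.5% ± 1.44. Within a library, Ccnd2 stood 4.27 ± 0.328 times above Ccnd1.

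Cyclin G1, an atypical cyclin that takes part in the p53 response, was the highest of the 10 genes. Ccng1 (chr11:40748552-40755311, minus strand) had 154 TPM in replicate 1 and 163 TPM in replicate 2, from 20373 and 18567 counts. At 158.5 ± 6.43 TPM it was 1.90 ± 0.112 times the sum of the D cyclins and ranked 314 among 22015 nuclear protein-coding genes. The median over the 10771 of them that reached 1 TPM in each library was 7.79 TPM, and 8 of the 10 genes lay above it.

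Of the kinases, Cdk4 stood well above Cdk6 in the gene tables. Cdk4 (chr10:127063534-127067920, plus strand) had 24.5 and 24.4 TPM, from 694 and 594 counts. Cdk6 (chr5:3341485-3531008, plus strand) had 1.36 and 3.28 TPM, from 376 and 428 counts. The values of Cdk4 differed little between libraries while those of Cdk6 were wide apart. The order of the pair depended on which transcripts were counted and on the tables used, as described below. The sum of the D cyclins was 3.13 ± 0.166 times that of the kinases in TPM. This ratio too depended on the transcripts counted, at 19.3 ± 0.830 on transcripts with a consensus coding sequence, and it was 7.97 ± 0.461 in expected counts, which are not corrected for length.

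The Cip/Kip inhibitors were more abundant than the INK4 inhibitor. Cdkn1b, which encodes p27, a keeper of quiescence in many tissues (chr6:134920401-134925513, plus strand), had 14.0 and 13.6 TPM, from 1461 and 1228 counts. Cdkn1a, encoding p21 (chr17:29090976-29100727, plus strand), had 10.0 and 8.76 TPM, from 698 and 515 counts. Cdkn2c, encoding p18 (chr4:109660876-109667189, minus strand), had 4.61 and 4.76 TPM, from 253 and 234 counts. The values of these 3 genes did not overlap, and Cdkn1b was 1.47 ± 0.112 times Cdkn1a. Their sum of 27.9 ± 1.07 TPM was 0.335 ± 0.0460 times the sum of the D cyclins, with 0.367 in replicate 1 and 0.302 in replicate 2. Meis1 (chr11:18879817-19018985, minus strand) had 10.6 and 11.1 TPM, from 1011 and 876 counts.

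**Figure D1:**
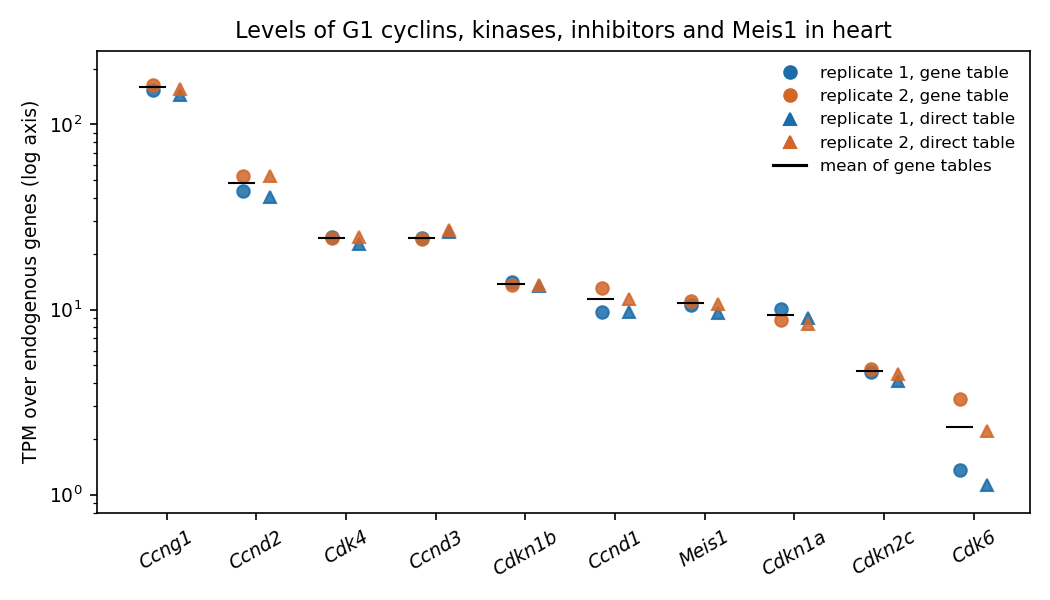
Levels of the 10 genes in TPM over endogenous genes on a log axis, with circles for the gene tables, triangles for the direct tables, 1 colour for each replicate and a line at the mean of the gene tables. Ccng1 stood highest at 158.5 TPM and Cdk6 lowest at 2.32 TPM, and the Cdk6 replicates were the widest apart.

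Ordered by mean level, the genes ran from Ccng1 through Ccnd2, Cdk4, Ccnd3, Cdkn1b, Ccnd1, Meis1, Cdkn1a and Cdkn2c to Cdk6. Neighbours were separated, in that the values of both libraries did not overlap, except for Cdk4 with Ccnd3 and for Ccnd1 with Meis1. The authors also deposited transcript values derived directly from reads, without the alignment, and summed per gene these gave the same order except that Ccnd3 (26.7 ± 0.470 TPM) stood above Cdk4 (23.7 ± 1.35 TPM). None of the 10 genes was 1.5-fold or more apart between these tables in both libraries, which held for 2.01% of the genes compared.

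How much of a level belonged to full coding transcripts differed widely among the 10 genes. Transcripts were classed by whether their annotation carries a consensus coding sequence (CCDS), a class added after the data had been seen. Ccng1, Cdkn1b and Cdkn2c had 100% of their TPM on such transcripts, and Cdkn1a had nearly as much, since Cdkn1a-201 alone held 96.4% and 94.5%. Cdk4 was at the other end, with 4.84% and 6.28% of its TPM and 12.9% and 16.8% of its counts on Cdk4-201, a transcript of 2053 bases with a coding sequence of 912. Its largest share was on Cdk4-209, a retained-intron model of 468 bases, with 32.3% and 33.6%. A nonsense-mediated decay model, Cdk4-208, held 23.8% and 25.1%. The direct tables gave Cdk4-209 as the main transcript too, in the mean of both libraries.

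Ccnd2 and Meis1 also had under 50% of their TPM on CCDS transcripts in both libraries. For Ccnd2 the share was 47.5% and 47.2% of TPM but 92.4% and 92.3% of counts. The full transcript, Ccnd2-201, has 6330 bases, of which 5173 are 3′UTR, and the short models Ccnd2-206 (627 bases) and Ccnd2-207 (415 bases) weigh more per count in TPM. For Meis1 the share was 35.1% and 31.2% of TPM, and the processed transcript Meis1-203 held 47.5% and 40.1%. The direct tables gave the coding Meis1-201 as the main transcript in its place. Thus 3 of the 10 genes had under 50% on CCDS transcripts in both libraries, beside 19.3% of the 10615 genes compared. The main transcript differed between the alignment-based and the direct tables for 1 of the 10, Meis1, beside 17.0% of genes.

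**Figure D2:**
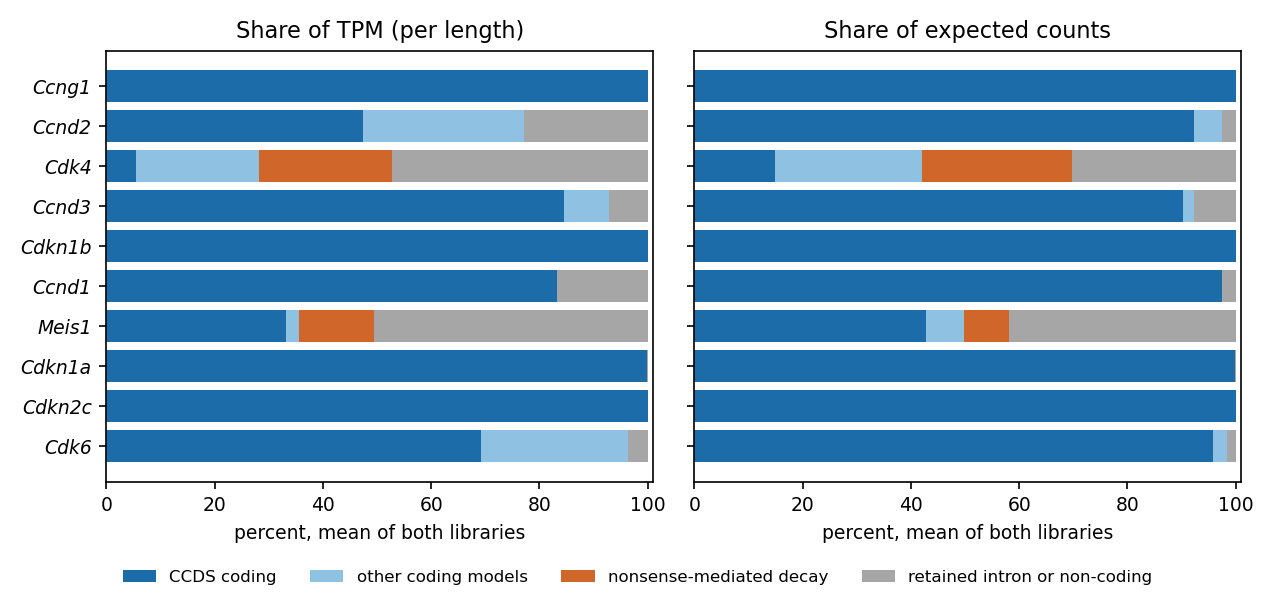
Shares of each gene's TPM (left) and expected counts (right) by transcript class in percent, as stacked bars of the mean of both libraries. Cdk4, Meis1 and Ccnd2 had under 50% of their TPM on CCDS transcripts, whereas Ccnd2 had over 92% of its counts there.

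Restricted to CCDS transcripts in the alignment-based tables, the order of the genes was not the same. Ccng1 (158.5 ± 6.43 TPM) remained highest, followed by Ccnd2 (22.9 ± 2.85) and Ccnd3 (20.5 ± 1.61), whose values now overlapped. Cdk4 came down to 1.36 ± 0.241 TPM and was not separated from Cdk6 at 1.40 ± 0.241 TPM. The ratio of Cdk4 to Cdk6 was thus 0.971 in place of 12.7 ± 7.51. In the direct tables, however, Cdk4-201 had 2.87 and 3.01 TPM, above each CCDS transcript of Cdk6. Those were Cdk6-202, with 0.815 and 0.982 TPM, and Cdk6-201, with 0.266 and 0.315 TPM. Meis1 came to 3.60 ± 0.165 TPM, below Cdkn2c. The direct tables gave Meis1-201 4.63 and 4.10 TPM and Cdkn2c 4.13 and 4.48 TPM, so that there the values overlapped. The inhibitors and Ccng1 kept their levels within 1 SD by construction, since all or nearly all of their TPM lay on CCDS transcripts. The D cyclins came to 19.3 times the kinases and the inhibitors to 0.533 times the D cyclins. These ratios were not taken on CCDS transcripts of the direct tables, where Cdk4-201 was higher.

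Cdk6 was the member whose TPM differed most between libraries, at 2.41 times as much in replicate 2. The deposited credibility bounds ran from 1.29 to 2.23 TPM in replicate 1 and from 2.69 to 4.38 TPM in replicate 2 and did not overlap. Nor did those of Ccnd1 (8.15 to 11.03 and 11.34 to 14.59 TPM) or Ccng1 (149.2 to 153.4 and 157.6 to 162.2 TPM). The Ccng1 fold in scaled counts was 1.01, and its TPM of 154.0 and 163.1 lay above its own bounds in each library. In scaled counts the fold of Cdk6 was 1.26, with a 95% counting interval of 1.10 to 1.45. The transcript with the largest difference in TPM was Cdk6-205, an incomplete model of 425 bases (chr5:3341485-3344453), which held 0 counts in replicate 1 and 14.0 counts in replicate 2. That was 1.29 TPM, or 39.4% of the gene's TPM in replicate 2. In the direct tables Cdk6-205 was at 0 in both libraries, and the gene had 1.12 and 2.20 TPM. There another incomplete model, Cdk6-204 of 376 bases, had 0 and 0.600 TPM, or 27.3% of the gene's TPM in replicate 2. The long transcript Cdk6-202, of 11525 bases with a 3′UTR of 10217 bases, held 325 and 345 counts, most of the gene's counts in each library. Cdk6 was the only one of the 10 genes that was 2-fold apart in TPM, beside 0.353% of nuclear protein-coding genes, and the only one whose main transcript differed between libraries, beside 12.1% of genes. Being 2-fold apart in TPM but not in counts held for 0.178% of genes.

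**Figure D3:**
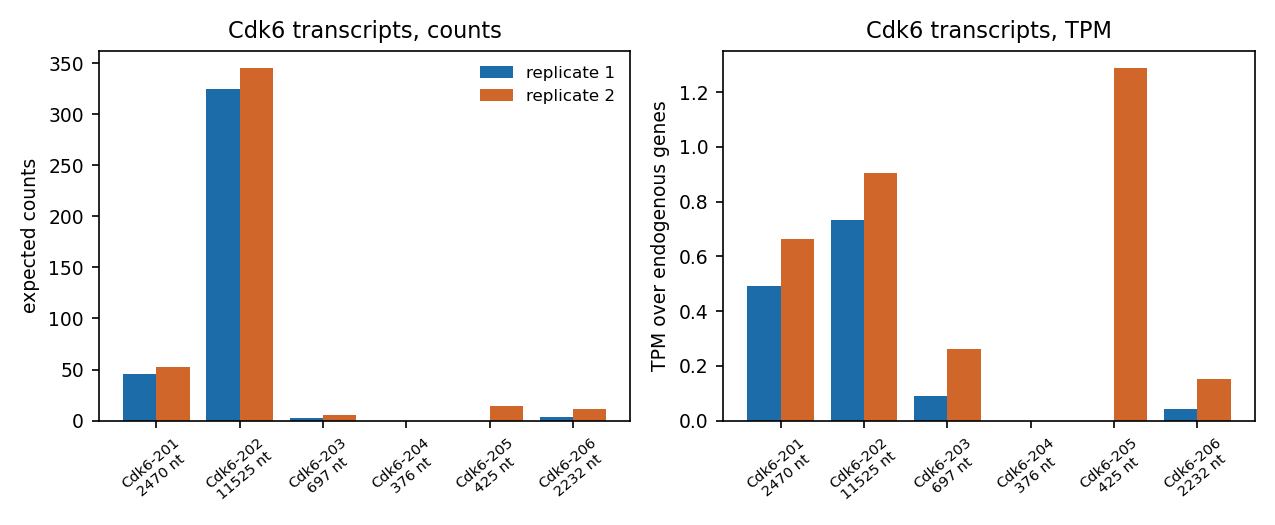
Cdk6 transcripts by library, in expected counts (left) and TPM (right), with the length of each transcript under its name. Cdk6-202 held most counts in both libraries, and Cdk6-205, at 0 and 14.0 counts, had the highest TPM of any Cdk6 transcript in replicate 2.

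Start sites differed in use where a gene had more than 1. RefSeq (GRCm38.p6) gave start windows for 8 of the 10 genes, with 11 windows in all. Transcripts were assigned to a start site when their annotated start lay within 200 bases, which is an estimate from whole transcripts and not a measurement of 5′ ends. For Ccnd3 the downstream site at 47593467 carried 76.6% and 82.1% of TPM. The upstream site at 47505051, 88416 bases away, carried 20.9% and 16.9%, over 13 annotated transcripts. In the direct tables the downstream Ccnd3 site had 60.1% and 70.0%, and the upstream site 15.4% and 12.9%. For Cdkn1a the downstream site at 29093769 carried 97.3% and 94.5% of TPM, and the upstream site, 2790 bases away, carried 0.300% and 3.99%. The direct tables gave the upstream Cdkn1a site 4.80% and 9.34%. Cdkn2c-201, starting at 109665372, held 70.0% and 65.7% of the Cdkn2c TPM but 49.8% and 44.9% of its counts, the rest being on the longer Cdkn2c-202. The other RefSeq site of Cdkn2c, at 109666756, had no transcript assigned to it. Cdkn2c-202 starts upstream of that site, at 109667189, beyond the 200 bases allowed, so use of the site was not resolved.

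The 250 bases before both start sites of Ccnd3 and of Cdkn1a are shown because the sites of each gene differ in use, and those before the single Ccng1 site because Ccng1 and Cdkn1a share a motif there. Capitals mark matches on either strand to GGGCGG (the core of a GC box), to the CCAAT box (CCAAT) and to the TATA box (searched as TATAAA), and to the p53 consensus, which is a pair of adjoining decamers of 20 bases in all, here allowing 1 mismatch and no spacer. The p53 consensus was added to the search after the Cdkn1a windows had been read. No marked matches overlapped.
Ccnd3 upstream, chr17:47504801-47505050, plus strand: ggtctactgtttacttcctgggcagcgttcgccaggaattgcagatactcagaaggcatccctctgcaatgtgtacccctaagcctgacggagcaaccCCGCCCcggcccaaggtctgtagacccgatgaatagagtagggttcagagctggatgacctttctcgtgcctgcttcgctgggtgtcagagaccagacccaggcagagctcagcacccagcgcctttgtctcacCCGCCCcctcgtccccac
Ccnd3 downstream, chr17:47593217-47593466, plus strand: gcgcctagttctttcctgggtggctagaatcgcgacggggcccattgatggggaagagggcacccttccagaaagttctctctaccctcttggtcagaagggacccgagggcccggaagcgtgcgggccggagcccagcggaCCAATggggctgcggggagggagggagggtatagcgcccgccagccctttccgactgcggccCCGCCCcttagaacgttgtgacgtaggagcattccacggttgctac
Cdkn1a upstream, chr17:29090729-29090978, plus strand: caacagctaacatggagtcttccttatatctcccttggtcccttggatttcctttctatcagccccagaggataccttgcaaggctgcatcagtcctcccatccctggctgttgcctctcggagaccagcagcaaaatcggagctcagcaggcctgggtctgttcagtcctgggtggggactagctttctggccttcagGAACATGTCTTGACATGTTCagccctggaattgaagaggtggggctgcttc
Cdkn1a downstream, chr17:29093519-29093768, plus strand: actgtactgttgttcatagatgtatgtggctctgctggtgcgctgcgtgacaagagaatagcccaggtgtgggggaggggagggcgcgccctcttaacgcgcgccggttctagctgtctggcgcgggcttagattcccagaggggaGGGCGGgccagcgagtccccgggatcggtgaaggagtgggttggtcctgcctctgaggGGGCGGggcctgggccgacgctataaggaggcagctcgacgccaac
Ccng1, chr11:40755287-40755536, minus strand: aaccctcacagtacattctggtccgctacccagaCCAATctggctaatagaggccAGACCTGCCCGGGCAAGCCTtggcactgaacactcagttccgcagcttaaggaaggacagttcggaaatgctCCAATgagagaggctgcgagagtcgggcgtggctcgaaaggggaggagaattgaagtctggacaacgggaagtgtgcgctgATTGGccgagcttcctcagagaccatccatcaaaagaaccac
The p53 consensus matched in 2 of the 11 windows, the upstream window of Cdkn1a and that of Ccng1, each with 1 mismatch. The match began 51 bases before the Cdkn1a start site and 195 bases before that of Ccng1. Over all 32536 windows of this length, 25 held such a match, a share of 0.0768%. In Cdkn1a it stood before the site with the smaller share of TPM, and the downstream window held GGGCGG matches instead. GGGCGG was found in 6 of the 11 windows and in 33.0% of all windows, CCAAT in 4 of 11 and in 33.8%, and TATAAA in 1 of 11, that of Cdk6, and in 12.3%. A match is a stretch of letters and does not show that a factor was bound in these samples.

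Some of the 10 genes share sequence or ground with other genes. Whether counting used the strand is not given in the sources used here, so values of genes that overlap on opposite strands are uncertain. The 3′ part of Cdk4 overlaps Tspan31 by 641 bases on the opposite strand, and 18.6% of the 31-base words of Cdk4 transcripts occurred in antisense orientation in other genes. Tspan31 had 909 and 755 counts, more than Cdk4. Ccnd1 overlaps LTO1 by 1771 bases, with 22.3% of its words antisense and 388 and 350 counts on LTO1. Ccnd3 overlaps Bysl by 361 bases, with 670 and 628 counts on Bysl. On the same strand, Meis1 shared 1000 words with Gm37818, a single-exon gene model with 19.7 and 11.6 counts. Ccnd3 shared 294 with the pseudogene Ccnd3-ps, which had 1 and 0 counts.

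The libraries gave close counts for most of the 10 genes. Libraries were scaled with TMM, and ratios are replicate 2 over replicate 1 with 95% intervals that cover counting error only. None of the 10 genes was 2-fold apart in counts, beside 0.568% of the 12492 genes tested, those averaging at least 50 counts. None was 1.5-fold apart either, beside 2.83%. The log2 ratio was above 0 for 6 and below 0 for 4, with a median of 0.02 beside -0.01 over all genes tested, and the median size was 0.09 beside 0.11. The central 95% of all genes ran from -0.48 to 0.47, and all 10 genes lay within it.

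Ccnd1 was the furthest apart in counts, with a log2 ratio of 0.46, a fold of 1.38 and an interval of 1.27 to 1.49. Of all genes tested, 5.40% were further apart. The direct tables gave Ccnd1 9.67 and 11.5 TPM, also higher in replicate 2. Ccnd2 had a fold of 1.14 (1.10 to 1.18) and Cdk6 one of 1.26 (1.10 to 1.45), also higher in replicate 2. Cdkn1a had a fold of 0.818 (0.729 to 0.918), the lowest of the 10 genes. For Ccnd3, Ccng1, Cdk4, Cdkn1b, Cdkn2c and Meis1 the interval included 1. Summed markers of several other cell types stood higher in replicate 2 as well. The share of all genes tested with a log2 ratio above 0 was 48.8%. The summed level of atrial markers was 1030 and 1696 TPM, with 5 of 5 above a log2 ratio of 0. For fibroblast markers it was 158 and 191 TPM, with 6 of 7 above 0, and for smooth muscle and pericyte markers 132 and 171 TPM, with 6 of 7. Log2 ratios ran from -0.11 to 0.86 among the fibroblast markers and from -0.02 to 1.05 among the smooth muscle and pericyte markers. The highest genes of these lists, Dcn and Rgs5, had 0.03 each. For macrophage markers the sum was 68.0 and 78.2 TPM, with 6 of 6 above 0. For erythroid markers it was 1480 and 1751 TPM, with all 3 genes tested above 0. For endothelial markers it was 183 and 178 TPM, with 1 of 6 above 0. The part of these cells in the differences of Ccnd1, Ccnd2 and Cdk6 was not tested.

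**Figure D4:**
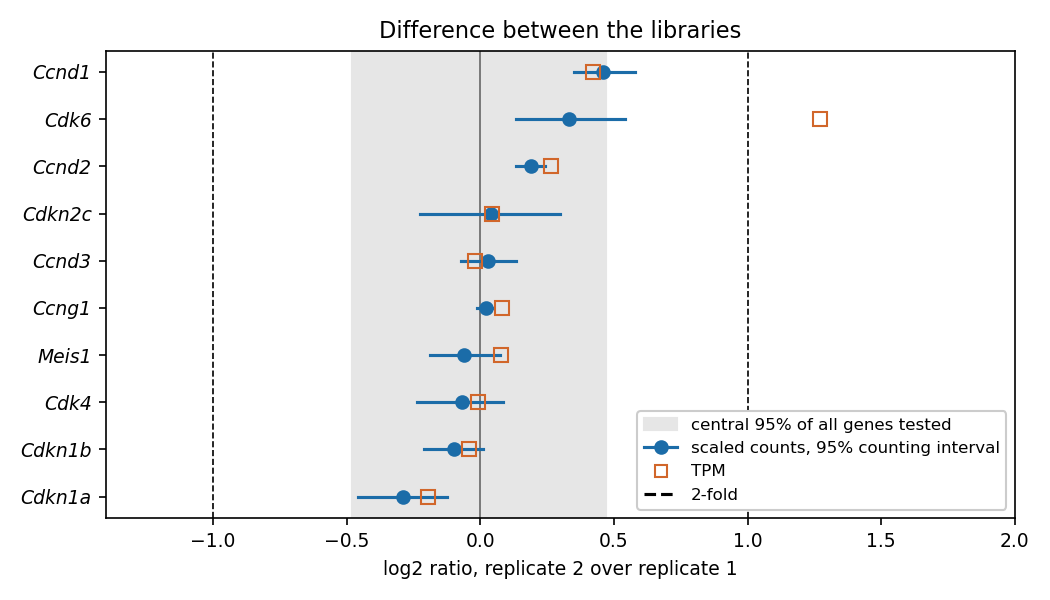
Log2 ratio of replicate 2 over replicate 1 for each gene, as circles with 95% counting intervals for scaled counts and open squares for TPM, with dashed lines at 2-fold and a grey band for the central 95% of all genes tested (-0.48 to 0.47). In counts all 10 genes lay within the band, and Cdk6 passed 2-fold in TPM only.

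The direction of small ratios depended on the scaling. Spike-in totals, which took 0.412% and 0.357% of counts, moved the median log2 ratio of all genes to 0.21. On that scale Cdk4 (0.14), Cdkn1b (0.12) and Meis1 (0.16) came above 0, still below the median of all genes, and Cdkn1a was at -0.07. Size factors of DESeq2 and total counts gave each of the 10 genes the same sign as TMM.

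The other genes around the G1 pathway are given by list, beside a share of 48.9% of all nuclear protein-coding genes that reached 1 TPM in both libraries. Of 107 genes in 11 lists, 74 had at least 1 TPM in both libraries, and of the 78 averaging at least 50 counts none was 2-fold apart in either direction (0.240% of all genes tested were higher in replicate 2 and 0.328% in replicate 1). Of other CDK inhibitors, Cdkn1c, encoding p57, had 12.8 ± 0.276 TPM and Cdkn2d, encoding p19, 5.57 ± 0.0759 TPM. The INK4 genes of the senescence-linked locus were near the limit of counting, Cdkn2a with 6 and 5 counts and Cdkn2b with 8 and 14. Among the targets of the kinases, the pocket protein Rbl2 (p130), which is typical of resting cells, had 14.5 ± 0.497 TPM and Rb1 6.37 ± 0.638 TPM. E2F and DP factors had 5 of 10 genes at 1 TPM, led by Tfdp2 (33.9 ± 1.81 TPM) and E2f6, a repressive member (29.2 ± 1.80 TPM). The MuvB core, which joins p130 in a repressor of cell cycle genes, had 4 of 5, led by Rbbp4 at 24.2 ± 0.651 TPM.

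Of genes of S phase and mitosis, 5 of 20 reached 1 TPM in both libraries, and their median was 0.226 TPM. The proliferation marker Mki67 had 49 and 80 counts, topoisomerase Top2a 14 and 27, the mitotic kinase Cdk1 3 and 13, and its cyclin Ccnb1 1 and 5. Of the 6 genes in the list averaging at least 50 counts, 5 had a log2 ratio above 0 in scaled counts, beside 48.8% of all genes tested. None of these was 2-fold apart, and the other genes in the list held fewer counts. Pcna, a sliding clamp that also serves DNA repair, stood apart at 14.1 ± 0.457 TPM, and Cenpf had 2.33 ± 0.0915 TPM. The list of cyclin E, Cdk2 and the CDK-activating kinase had 5 of 7 at 1 TPM, led by Ccnh (11.3 ± 1.15 TPM) and Cdk7 (7.38 ± 1.04 TPM).

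Of p53 and its targets, to which Cdkn1a and Ccng1 also belong, 15 of 16 had at least 1 TPM in both libraries, led by the stress sensor Sesn1 (42.2 ± 2.16 TPM) and the p53 ligase Mdm2 (17.1 ± 2.47 TPM). Factors that degrade D cyclins, p21 and p27 ranged widely, from 0.0553 to 84.6 TPM with a median of 19.1 TPM, and 12 of 14 reached 1 TPM. Skp1a (84.6 ± 5.07 TPM) and Ddb1 (45.8 ± 0.465 TPM) were at the top. Below 1 TPM were Skp2, with 17 and 15 counts, and Dtl, with 3 and 9 counts. Of TALE homeobox relatives and partners of Meis1, 7 of 10 reached 1 TPM, among them Meis2 at 10.4 ± 0.294 TPM. Hoxb13, a known partner of Meis1, had 0 counts in both libraries, and a count of 0 allows up to 3. All 9 other non-mitotic cyclins reached 1 TPM, led by Ccni (56.5 ± 0.119 TPM) and Ccny (28.7 ± 1.38 TPM), below Ccng1. Of FoxO and Myc factors, which act on the D cyclins and on Cdkn1b, 8 of 9 reached 1 TPM, led by Foxo3 (27.3 ± 4.14 TPM) and Max (25.9 ± 2.64 TPM). Their median log2 ratio was -0.24, with 1 of 8 above 0, while for the other non-mitotic cyclins it was -0.04, with 1 of 9 above 0. Of all genes tested, 48.8% were above 0.

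**Figure D5:**
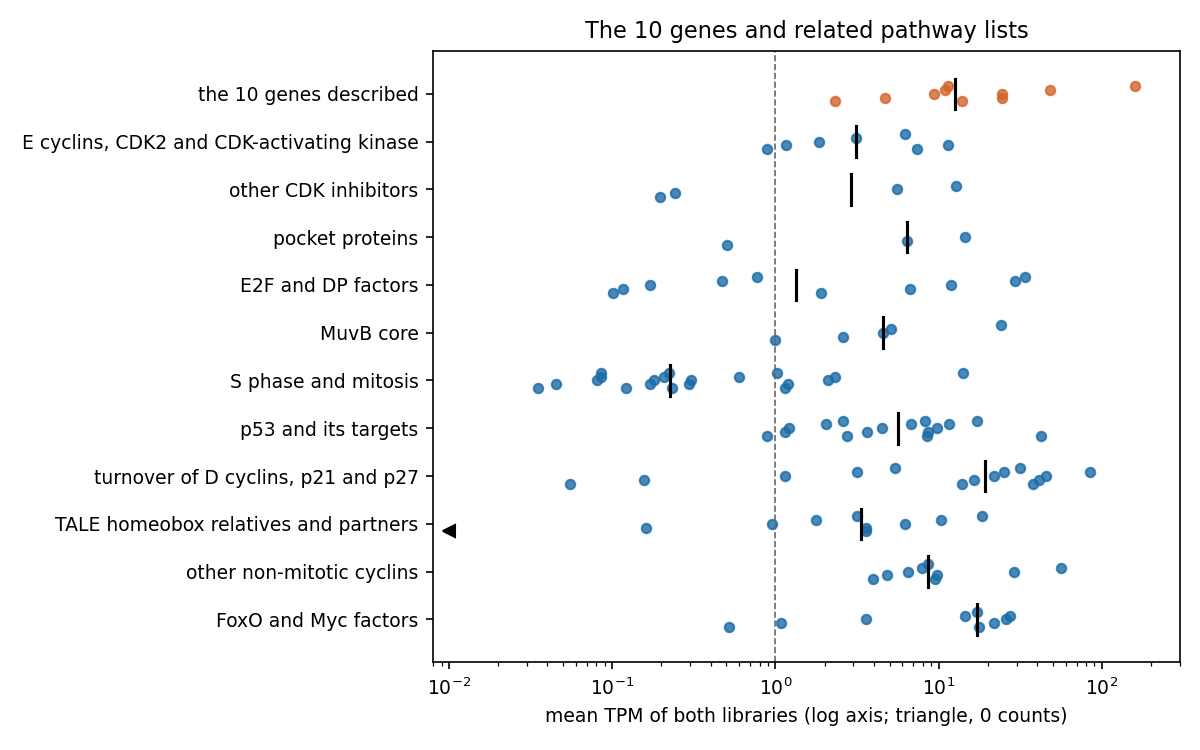
Mean TPM of both libraries on a log axis for the 10 genes and for each pathway list, with 1 point per gene, a bar at the median, a dashed line at 1 TPM and a triangle for 0 counts. The median of the 10 genes was 12.6 TPM and that of the S phase and mitosis list 0.226 TPM.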

How the data were processed

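Per the sample labels, the 2 libraries came from a directional kit and formed 1 group. The authors deposited expected counts, unnormalised, per gene and transcript, from a transcriptome alignment on mm10 with GENCODE M21, per the file headers, and the direct tables held estimated counts made from reads without that alignment. TPM values were deposited as scaled over each whole table, spike-ins included. The percent of a gene's TPM that each of its transcripts holds is also a value of the authors, per the file headers. The aligner, the quantifier, their versions and the use of strand are not given in the sources used here.

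All 55536 gene identifiers matched the annotation. TPM was rescaled over endogenous genes, and 26248 entries with numeric identifiers, which held 0 or 1 counts in total per library, were left out. Expected counts were rounded for scaling with TMM in edgeR 4.0.16 (R 4.3.3), with a prior count of 2 in log2 ratios. Genes were called at 2-fold among those with a mean count of at least 50. Python 3.11.15, numpy 2.4.6, pandas 2.3.3, scipy 1.17.1 and biopython 1.88 served for other steps. The members and the gene lists were chosen with earlier results of these data known. Named were all 10 genes, the 2 highest genes of each pathway list, genes called at 2-fold or at 0 counts in both libraries, Mki67, Top2a, Ccnb1 and Cdk1, and the highest gene of a described cell type list. A gene that this rule takes is not reported here. Cdkn2a, Cdkn2b, Skp2 and Dtl were named outside this rule, after their values were seen. Alternatives were the direct tables, TPM as deposited or over nuclear protein-coding genes, other scalings (DESeq2 1.42.0 size factors, totals, spike-ins), count and TPM minima, prior counts, fold thresholds and each library alone, and CCDS transcripts only, which was added after the data had been seen. Promoter and transcript sequences were taken from RefSeq (GRCm38.p6) and GENCODE M21. Ccnd1 and Ccnd2 have no promoter sequence here. Human transgenes and CAST alleles were not analysed here.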

Additional observations from a re-analysis of the deposited data

How the results depend on the processing

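No paired analysis was possible because the series holds 1 group of libraries. None of the 10 genes was 2-fold apart in counts under any scaling, minimum or prior count tried. With CCDS transcripts only, an alternative chosen after seeing the data, the Ccnd2 share of the D cyclins was 43.2%, the D cyclins were 19.3 times the kinases, Cdk4 was 0.971 times Cdk6, and the inhibitors were 0.533 times the D cyclins. By construction this setting drops the retained-intron, decay and incomplete models on which most of the Cdk4 TPM lay. With the direct tables the Ccnd2 share was 55.3% and the D cyclins were 3.30 times the kinases, and the cause was not tested. With 1 library left out, the Ccnd2 share ran from 56.2% to 58.7%, the D cyclins from 3.02 to 3.25 times the kinases, the ratio of Cdk4 to Cdk6 from 7.43 to 18.1, and inhibitors over D cyclins from 0.302 to 0.367. The ratio of Cdk4 to Cdk6 thus rests on which library is used, with 7.43 in replicate 2 alone. Of all genes, 71 were 2-fold apart with a mean count of at least 50, 436 with at least 10, 2453 with no minimum, and 353 were 1.5-fold apart, as lower minima let in genes with few counts and the lower fold takes in more. Levels moved by more than 1 SD for 6 of the 10 genes with the direct tables, for 4 with CCDS transcripts only and for 1 (Cdk4) as deposited. They moved for 10 with TPM over nuclear protein-coding genes, which raises each level by construction (Ccng1 to 467.5 TPM, Ccnd2 to 142 TPM). This SD depends on how close the 2 libraries were, so the counts do not measure the size of a change. With the direct tables Cdk6 went from 2.32 to 1.66 TPM within 1 SD, while Cdkn1b, from 13.80 to 13.44 TPM, counted as moved. With 2 libraries from 1 donor identifier, no spread between animals could be estimated, and Cdkn2c rests on 253 and 234 counts.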

Other observations

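Several transcripts were estimated in 1 library only, beside genes whose total counts were close. Ccnd3-215 held 69.8 counts in replicate 1 and 0 in replicate 2, while Ccnd3-201, which starts at the same upstream site and has the same coding length of 879 bases, held 0 and 129. The short model Ccnd3-220, of 299 bases, held 7.04% of the Ccnd3 TPM in replicate 1 and 0 in replicate 2. Meis1-209, which has a coding sequence of 1398 bases beside 1173 in Meis1-201, held 131 counts in replicate 1 and 0 in replicate 2. The Meis1 decay model Meis1-207 held 47.6 and 106 counts. Cdkn1b-203 held 27.3 and 0 counts, whereas the main forms of Cdkn1b, Cdkn1b-201 with a 3′UTR of 1280 bases and Cdkn1b-202 with one of 3439 bases, held 77.6% and 80.9%, and 19.4% and 19.1%, of its TPM.

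Atrial Bmp10, the smooth muscle gene Cnn1 and the adipocyte gene Adipoq were each more than 2-fold higher in replicate 2, with log2 ratios of 1.06, 1.05 and 1.14. Adipocyte markers summed to 17.9 and 27.3 TPM, and fast skeletal muscle markers to 9.47 and 6.52 TPM. Each of these lists was small beside the cardiomyocyte markers, which summed to 25728 and 28326 TPM.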
